A study of Mus musculus with 6 samples.

Results

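The mRNA of 10 genes that carry iron into a cell, store it, let it out or sense it was followed in skeletal muscle of mice with and without a C26 tumor. The genes were Tfrc and Trf (uptake), Steap3, Steap4 and Slc11a2 (reduction and passage across the endosomal membrane), Fth1 and Ncoa4 (storage and release), Slc40a1 (export) and Aco1 and Ireb2 (sensing). They are 10 of the 18782 genes that a probe set named uniquely, out of 21212 probe sets on the array, and all 10 were measured above background in both groups. They were picked by name for their place in iron handling after the difference between control and C26 muscle in these arrays was known, so that difference is described here for them and not tested.

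C26 is a colon adenocarcinoma line of the mouse whose growth under the skin brings on cachexia, a wasting of muscle and fat. Male CDF1 mice, 8 weeks old at purchase, received C26 cells in PBS/matrigel in both flanks, and control mice received PBS/matrigel alone. The gastrocnemius and plantaris muscles were taken 25 days later from 4 C26 mice and 3 control mice, and the RNA of 2 to 3 muscles of a group was pooled for each array. The sources used here do not say which mice a pool drew on. The control group had 3 pools, numbered 1, 2 and 3 in the labels, and the C26 group 3 pools, numbered 1, 3 and 4, each on a Mouse Gene 1.0 ST array that reads whole transcripts. The pools of a group may share a mouse, so that errors and p-values rest on the spread between these pools, which may be smaller than that between mice. Errors of the limma fit also borrow from the spread of all probe sets. They can thus be larger or smaller than a gene's own pools would give. Array medians lay between 4.93 and 5.02 on the log2 scale, and the correlation across probe sets was 0.994 to 0.996 within a group and 0.976 to 0.981 between groups. The number of arrays limits the precision.

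Iron reaches most cells bound to transferrin, the product of Trf, which docks at the transferrin receptor encoded by Tfrc and is taken into endosomes. There the STEAP reductases turn ferric into ferrous iron, and Slc11a2 (DMT1) carries it to the cytosol. What is not used is stored in ferritin, whose heavy chain is Fth1, and is freed again when Ncoa4 leads ferritin to the lysosome. Slc40a1 (ferroportin) is the exporter. The iron regulatory proteins, encoded by Aco1 and Ireb2, bind hairpins called iron responsive elements when iron is scarce, which protects the Tfrc mRNA from decay and holds back translation of ferritin mRNA. Muscle holds much iron in myoglobin and in the heme and iron-sulfur proteins of its mitochondria.

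The bases upstream of an annotated start are shown for Tfrc, the member with the largest difference, and for Steap4, the member called higher. In the 250 bases before the second of its annotated starts (RefSeq, GRCm38.p6, chr16:32608872-32609121, plus strand), Tfrc holds the letters ACGTG, a core that hypoxia-inducible factors and some E-box proteins read, beginning 228 bases before the start (capitals). Most of these bases lie after the first annotated start, and the ACGTG spans that start. The 250 bases before the first start held no ACGTG. In the 250 bases before the Steap4 start (chr5:7960222-7960471, plus strand), a match to TTCNNNGAA, the spacing of a STAT site, begins 116 bases before the start (capitals).
Tfrc: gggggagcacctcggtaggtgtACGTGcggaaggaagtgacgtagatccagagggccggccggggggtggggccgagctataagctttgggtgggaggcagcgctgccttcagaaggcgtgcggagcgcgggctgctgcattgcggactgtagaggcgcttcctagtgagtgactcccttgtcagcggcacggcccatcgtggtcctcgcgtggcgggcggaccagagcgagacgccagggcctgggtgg
Steap4: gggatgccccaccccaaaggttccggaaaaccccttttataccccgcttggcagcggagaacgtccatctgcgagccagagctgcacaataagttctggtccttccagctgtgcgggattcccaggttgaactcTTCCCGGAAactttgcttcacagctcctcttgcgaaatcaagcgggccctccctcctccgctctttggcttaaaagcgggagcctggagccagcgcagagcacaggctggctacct
The table of promoters held 14 windows for 7 of the 10 genes and none for Trf, Slc40a1 and Slc11a2. A gene can have several windows, so shares of windows belong beside counts of windows. ACGTG, searched on both strands, lay in 16.6% of all 32851 windows and in 3 of the 14 member windows, from 2 genes, Tfrc and Ncoa4. TTCNNNGAA lay in 7.02% of all windows and in 1 of the 14 member windows, that of Steap4, where the match also fits the narrower TTCCNGGAA (0.913% of windows). Of 8 patterns searched, these were chosen for display after their matches were seen. The other patterns searched on both strands were GCGTG (28.2% of all windows, 5 of the 14 member windows, from 4 genes) and TGACNNNGC or TGAGNNNGC (23.0%, 3 of 14, from 3 genes). The last were TTACNNAA or TTGCNNAA (16.5%, 4 of 14, from 3 genes) and TGCACNC or TGCGCNC (21.4%, 2 of 14, from 2 genes). CAGTG, the loop letters of an iron responsive element, was searched on the transcribed strand of the 50 bases after the start. It lay in 7.20% of windows and in 1 of the 14 member windows, of Steap3. The rest of each mRNA was not searched and the letters alone do not make a hairpin. This search therefore cannot tell which members carry such an element. The matches describe these letters and say nothing of binding.

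Compared with control muscle, C26 muscle held far less Tfrc mRNA, less Steap3 and Slc11a2 mRNA and more Steap4 mRNA. With limma's adjusted p at or under 0.05 and a minimum fold of 1.5, these were 3 members lower and 1 higher, and the other 6 were not called. Over all probe sets, 4.95% were called lower and 5.94% higher. Since the members were picked with this contrast known, nothing is read from these counts. With no minimum fold, 7 of 10 members passed, adding Trf and Slc40a1 on the higher and Aco1 on the lower side, against 30.1% of all probe sets. In 8 of 10 members every pool of a group lay above every pool of the other, against 43.9% of all probe sets. The median difference of the 10 members was -0.04 and that of all probe sets -0.05 on the log2 scale.

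**Figure D1:**
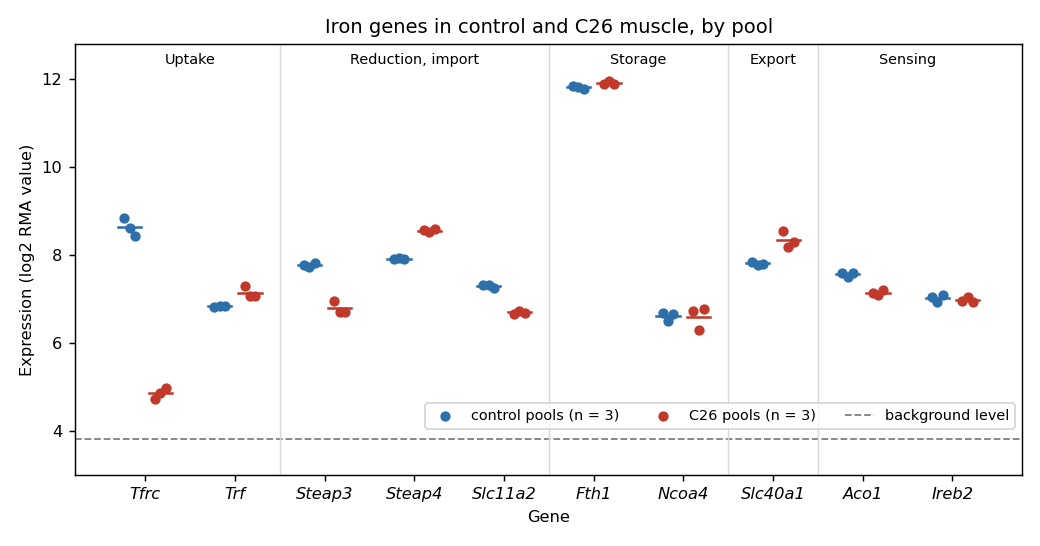
Level of each of the 10 iron genes (log2 RMA value, vertical axis) by gene and role (horizontal axis), with a point for each of the 3 control and 3 C26 pools, a line for each group's mean and a dashed line for the array background. Tfrc lay between 8.43 and 8.84 in control and between 4.73 and 4.98 in C26 pools, while the pools of Ncoa4 and Ireb2 overlapped.

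Tfrc, the receptor that brings transferrin-bound iron into the cell, stood at 8.84, 8.62 and 8.43 (log2) in control replicates 1, 2 and 3 and at 4.73, 4.85 and 4.98 in C26 replicates 1, 3 and 4. The lowest control pool lay far above the highest C26 pool, and all 3 C26 pools remained above the array background of 3.82. The difference was -3.78 ± 0.12 (SE of the limma fit, n = 3 pools per group; 95% interval -4.05 to -3.51), or 13.7-fold lower, and it was the 4th lowest among the 18782 uniquely named genes. Since RNA came from whole muscle, fewer cells of a type that hold an mRNA and less of that mRNA per cell cannot be told apart, for Tfrc and for every gene below.

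Trf encodes transferrin itself, which the liver supplies to plasma. Its levels were 6.82, 6.84 and 6.83 in control and 7.30, 7.06 and 7.07 in C26 muscle, with C26 replicate 1 the highest and no overlap between the groups. The difference was 0.31 ± 0.09 (95% interval 0.12 to 0.51), opposite in sign to that of its receptor and under the 1.5-fold threshold.

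The genes whose 6 values, each centred on its own mean, ran closest to those of Tfrc among the uniquely named genes were Ostn (root mean square difference 0.149), Chad (0.168), Nrep (0.248), Nmrk2 (0.267) and Ky (0.276). Ostn encodes the secreted peptide osteocrin, or musclin, and stood at 8.62, 8.44 and 8.63 in control and at 4.63, 4.69 and 4.76 in C26 muscle. With 2 groups of 3 pools, such likeness rests mostly on the size of the step between groups, which was -3.87 for Ostn, -3.79 for Chad, -3.88 for Nrep, -3.44 for Nmrk2 and -3.41 for Ky.

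The 3 genes that reduce endosomal iron or pass it to the cytosol did not run the same way. Steap3, the main ferrireductase of the transferrin cycle in red cell precursors, stood at 7.78, 7.72 and 7.81 in control and at 6.95, 6.71 and 6.70 in C26 muscle. C26 replicate 1 was the highest of the C26 pools and still lay well below every control pool. The difference was -0.98 ± 0.09 (95% interval -1.19 to -0.78).

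Steap4, a metalloreductase of the same family known from fat tissue and from inflammation, stood at 7.90, 7.93 and 7.91 in control and at 8.57, 8.52 and 8.58 in C26 muscle. All C26 pools lay above all control pools, and pools of the same group were within a narrow range. The difference was 0.65 ± 0.07 (95% interval 0.49 to 0.81), and it fell under the fold threshold, at 0.56, when the deposited values were quantile-normalized again.

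Slc11a2, the ferrous iron carrier of the endosome, stood at 7.32, 7.32 and 7.25 in control and at 6.66, 6.73 and 6.69 in C26 muscle. The groups did not overlap and the C26 pools lay close together. The difference was -0.61 ± 0.07 (95% interval -0.77 to -0.45), just past the fold threshold, and it was -0.54 and not called when each array was centred on its median. Steap4 and Slc11a2 were thus the called members nearest to the threshold, and Slc40a1 and Aco1 the nearest outside it.

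**Figure D2:**
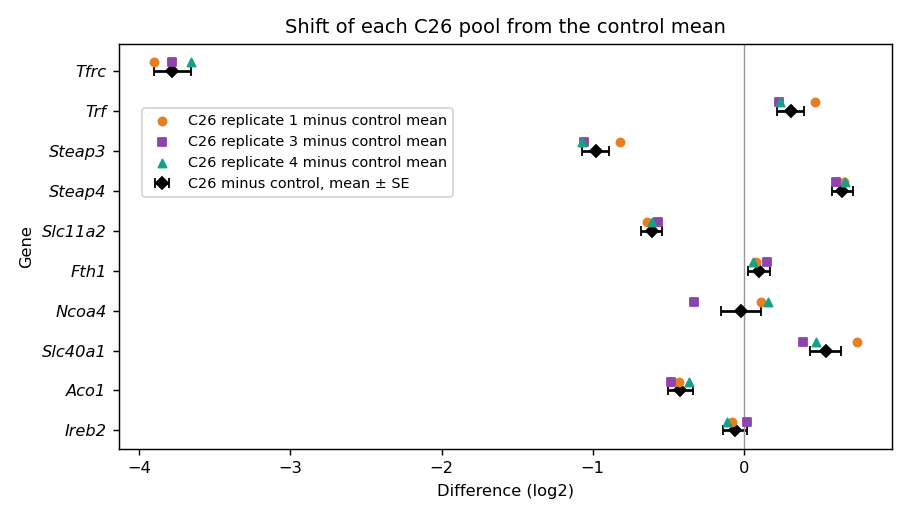
Difference between C26 and control muscle (log2, horizontal axis) for each of the 10 iron genes, ordered by role, with diamonds and bars for the mean difference and its SE from the limma fit and colored points for each C26 pool minus the control mean. Tfrc lay at -3.78, and only Ncoa4 and Ireb2 had C26 pools on both sides of 0.

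Among the storage genes neither was called. Fth1, the ferritin heavy chain, stood at 11.84, 11.83 and 11.78 in control and at 11.89, 11.96 and 11.88 in C26 muscle. The C26 pools were all a little above the control pools. The difference was 0.10 ± 0.07 (95% interval -0.07 to 0.26), and it was 0.14 to 0.16 under the other scalings. Processed pseudogenes of Fth1 share its sequence, so its probe set may read them as well.

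Ncoa4, the receptor that carries ferritin to autophagosomes, stood at 6.68, 6.50 and 6.66 in control and at 6.72, 6.29 and 6.78 in C26 muscle. C26 replicate 3 was the lowest of all 6 pools and C26 replicate 4 the highest, so the groups overlapped. The difference was -0.02 ± 0.13 (95% interval -0.32 to 0.28), and it was 0.05 with arrays centred on their medians and 0.13 without C26 replicate 3. An interval of that width does not show that the level was the same.

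Slc40a1, the only known iron exporter of mammalian cells, stood at 7.85, 7.77 and 7.80 in control and at 8.55, 8.19 and 8.29 in C26 muscle. C26 replicate 1 was the highest pool, and the groups did not overlap. The difference was 0.54 ± 0.10 (95% interval 0.31 to 0.77), just under the fold threshold. It was past the threshold, at 0.62, without C26 replicate 3 and, at 0.61, when arrays were centred on their medians, and it was 0.44 without C26 replicate 1.

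Ferroportin is abundant in macrophages that recycle iron, and macrophage markers were therefore set beside it. Of 11 measured macrophage markers 3 rose and none fell: Mrc1 by 0.93 ± 0.08 (adjusted p = 9.8e-05, limma), Cd14 by 0.83 ± 0.12 (adjusted p = 0.00118) and Vsig4 (adjusted p = 0.0215) with no fold given, since its means lay under background in both groups, as did those of 1 other of the 11. The summed intensity of the 11 on the linear scale ranged from 603 to 650 in control and from 799 to 812 in C26 pools. Lyz2, the brightest of them, weighs most in that sum. It differed by 0.44 ± 0.08 (adjusted p = 0.00303, limma), under the fold threshold. The general macrophage markers Adgre1 and Csf1r differed by 0.00 ± 0.08 and 0.02 ± 0.08. Over the list 7 means were higher and 4 lower, down to -0.38 for Marco, with a median difference of 0.02. The part of macrophages in the Slc40a1 difference was not tested.

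The sensors differed from each other. Aco1, which encodes iron regulatory protein 1 or, with its iron-sulfur cluster, cytosolic aconitase, stood at 7.60, 7.50 and 7.60 in control and at 7.13, 7.09 and 7.20 in C26 muscle. No C26 pool reached the lowest control pool. The difference was -0.42 ± 0.08 (95% interval -0.60 to -0.25), smaller than 1.5-fold.

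Ireb2, which encodes iron regulatory protein 2, a protein set mainly by its degradation, stood at 7.05, 6.94 and 7.09 in control and at 6.95, 7.05 and 6.92 in C26 muscle. The pools of the groups were interleaved. The difference was -0.06 ± 0.08 (95% interval -0.24 to 0.13), and it was 0.01 with arrays centred on their medians.

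Beyond the 10 members, 96 of 105 listed genes of iron, heme and iron-sulfur cluster handling were measured, and 85 of them exceeded background in at least 1 group. At the same thresholds 14 rose and 8 fell, and 74 were not called. Over all probe sets, 5.94% were called higher and 4.95% lower. These shares belong beside counts of genes or markers called at these thresholds by limma on the deposited values. They were not worked out for other scalings, tests or a 2-fold minimum. The median difference over the 96 genes was -0.10, against -0.05 over all probe sets. The lists were written from knowledge of the pathway, but with earlier results of these arrays known, such as the differences of Slc39a14, Lcn2, Cd163 and Cybrd1, so the counts and p-values below are no independent support. When the deposited values were quantile-normalized again, 15 genes were higher and 13 lower.

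**Figure D3:**
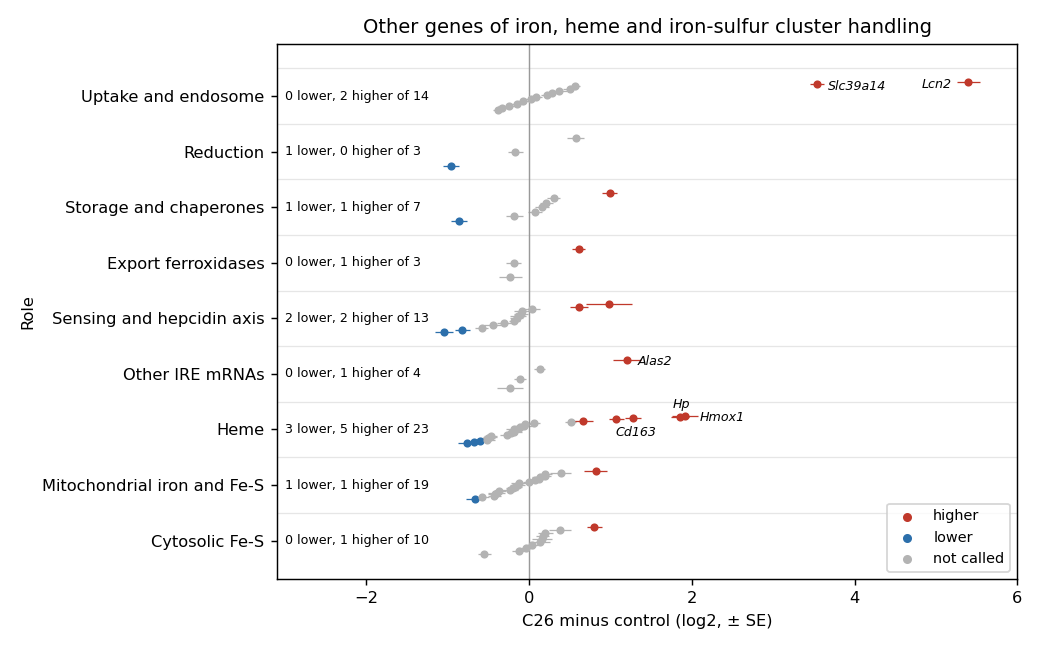
Difference between C26 and control muscle (log2, horizontal axis; bars give the SE of the limma fit) for the 96 other genes of iron, heme and iron-sulfur cluster handling, arranged by role, with called genes in color. Slc39a14 and Lcn2 stood far to the right of the other uptake genes, and the heme list had called genes on both sides of 0.

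Of 14 measured genes of uptake and endosomal traffic outside the members, 2 rose and none fell. Slc39a14 (ZIP14), a carrier of zinc and of iron not bound to transferrin, stood at 6.30, 6.38 and 6.48 in control and at 9.84, 10.05 and 9.89 in C26 muscle, a rise of 3.54 ± 0.09 (adjusted p = 3.73e-07, limma). All 3 C26 pools lay far above all 3 control pools, the reverse of Tfrc. Lcn2, or lipocalin 2, which binds bacterial iron carriers and is made by neutrophils and by many cells in inflammation, rose by 5.40 ± 0.14 (adjusted p = 4.48e-07), from 4.74 to 5.05 in control pools to 9.98 to 10.51 in C26 pools. Scara5, a ferritin receptor, differed by 0.50 ± 0.08 (adjusted p = 0.00222) and was not called for its size, and Tfr2, the second transferrin receptor, was under background in both groups.

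Neutrophil markers were higher in the same pools as Lcn2. Of 11 measured markers 7 rose and none fell, among them Cxcr2 (adjusted p = 1.13e-05, limma), S100a8 (adjusted p = 1.5e-05) and Retnlg (adjusted p = 0.000114). The control means of these 3 lay under the background of 3.82, so their C26 means, set against that background, give only bounds, at least 1.90-fold higher for Cxcr2, 2.69-fold for S100a8 and 2.69-fold for Retnlg. The summed linear intensity of the 11 ranged from 106 to 115 in control and from 247 to 295 in C26 pools. Ly6g, Mpo, Camp and Ngp did not exceed background in either group. Ngp was 1 of the 7 called higher, so no fold is given for it. Elane, Mpo and Camp differed by 0.06, -0.09 and 0.02 and were not called. The part of neutrophils in the rise of Lcn2 was not tested.

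Of 3 other reductases, Cybrd1, the duodenal cytochrome b reductase, fell (adjusted p = 0.000188, limma) from a control mean of 4.33 to a C26 mean of 3.37, under background, and was thus at least 1.42-fold lower. Of 7 storage and chaperone genes, Tax1bp1, an autophagy receptor that takes part in ferritin turnover, rose by 0.99 ± 0.09 (adjusted p = 9.07e-05). Pcbp4, of the family of poly(C)-binding proteins that deliver iron to ferritin, fell by 0.86 ± 0.10 (adjusted p = 0.000311). Pcbp1, Pcbp2 and Pcbp3 of that family differed by 0.30, 0.21 and 0.16 and were not called. Of 3 ferroxidases, which load iron leaving the cell onto transferrin, Cp (ceruloplasmin) rose by 0.61 ± 0.08 (adjusted p = 0.000726), in the same direction as Slc40a1, and it was 0.55 and not called without control replicate 3.

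The sensing list beyond the members covers the hepcidin axis, in which BMP signals set the hormone that removes ferroportin from the cell surface. Of 13 measured genes 2 fell and 2 rose. Hjv (hemojuvelin), a BMP co-receptor made mainly in muscle and liver, stood at 10.39, 10.33 and 10.35 in control and at 9.57, 9.13 and 9.21 in C26 muscle and fell by 1.05 ± 0.11 (adjusted p = 0.000235, limma). Acvr1, a BMP type I receptor, fell by 0.82 ± 0.09 (adjusted p = 0.000195). Erfe (erythroferrone), a hormone that lowers hepcidin, rose by 0.61 ± 0.11 (adjusted p = 0.00279), and it was not called without C26 replicate 4 (0.52), without control replicate 2 (0.58), with the replicate block (0.49) or by a per-gene test with unequal variances (adjusted p = 0.0874). Hamp2, a copy of the hepcidin gene, rose by 0.98 ± 0.28 (adjusted p = 0.0274), with C26 replicates 1, 3 and 4 at 5.59, 6.87 and 6.50 beside control values up to 5.54. That call was lost without C26 replicate 3 or 4 and without control replicate 1 or 2 (adjusted p from 0.07 to 0.0994), with limma's intensity trend and robust prior (adjusted p = 0.0525), and by per-gene tests with equal (adjusted p = 0.171) or unequal variances (adjusted p = 0.263), and Hamp and Hamp2 are so alike that their signals may mix. Hamp itself was under background in both groups.

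Alas2, the erythroid enzyme at the first step of heme synthesis, whose mRNA carries an iron responsive element, rose by 1.20 ± 0.17 (adjusted p = 0.00106, limma), from 7.16 to 7.54 in control pools to 8.10 to 8.74 in C26 pools. It was the called gene of 4 measured among other mRNAs with such an element. Of 6 measured erythroid markers 2 were called higher and none lower. Hbb-bt rose by 0.77 ± 0.19 (adjusted p = 0.0149, limma) and Slc4a1 by 0.60 ± 0.08 (adjusted p = 0.000944). The list did not run 1 way, with 3 means higher, 3 lower and a median difference of 0.05. Epb42 differed by 0.21, Ermap by -0.11, Klf1 by -0.18 and Rhd by -0.16, none of them called. Rhd did not exceed background in either group. The summed linear intensity of the 6 markers was 147 to 178 in control and 195 to 230 in C26 pools. Near-identical globin genes share probes with Hbb-bt. The part of red cells and their precursors in the Alas2 difference was not tested.

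Of 23 measured genes of heme handling 5 rose and 3 fell. Hmox1 (heme oxygenase 1), which frees iron from heme, stood at 5.30, 5.36 and 5.29 in control and at 7.66, 7.01 and 7.04 in C26 muscle and rose by 1.92 ± 0.16 (adjusted p = 6.14e-05, limma). Hp (haptoglobin), which captures free hemoglobin, rose by 1.85 ± 0.11 (adjusted p = 1.5e-05), and Cd163, the macrophage receptor for that complex, by 1.28 ± 0.10 (adjusted p = 3.95e-05). Flvcr1, first described as a heme exporter, rose by 1.07 ± 0.09 (adjusted p = 7.41e-05). Alas1, the first enzyme of heme synthesis outside red cells, fell by 0.76 ± 0.11 (adjusted p = 0.00124), the opposite of Alas2. Slc46a1, a folate carrier that also takes up heme, fell by 0.68 ± 0.10 (adjusted p = 0.00108). The other called genes of the list, named after their values were seen, were Slc25a38, a mitochondrial glycine carrier that rose by 0.66 ± 0.12 (adjusted p = 0.00334), and Abcb10, a mitochondrial transporter that fell by 0.60 ± 0.12 (adjusted p = 0.00633). Slc25a38 was not called without C26 replicate 4 (0.56), with the replicate block (0.56) or by a per-gene test with unequal variances (adjusted p = 0.147). Abcb10 was not called without C26 replicate 4 (-0.48), without control replicate 1 (-0.52), with median centring (-0.54), with the replicate block (-0.51), or by per-gene tests with equal (adjusted p = 0.0643) or unequal variances (adjusted p = 0.0942). Mb, or myoglobin, differed by -0.47 ± 0.08 and was not called for its size.

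In mitochondria, Slc25a28 (mitoferrin 2), which imports iron outside red cells, rose by 0.82 ± 0.14 (adjusted p = 0.00269, limma), while Slc25a37, its erythroid relative, differed by 0.00 ± 0.08. Glrx5, which passes on newly made iron-sulfur clusters, fell by 0.67 ± 0.10 (adjusted p = 0.001) and was not called without C26 replicate 1 (-0.58). These were the called genes of 19 measured in mitochondrial iron and cluster assembly, in which 12 means were lower and 7 higher. Of 10 measured genes of the cytosolic assembly of clusters, Mms19 rose by 0.80 ± 0.09 (adjusted p = 0.000217).

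The labelled tissue was checked by 12 genes of skeletal muscle fibers, all above background in both groups. Of these, Casq1 differed by -1.68 ± 0.14 and Mylpf by -0.70 ± 0.07 and both were called lower (limma), and Acta1 and Ckm differed by -0.05 ± 0.07 and -0.02 ± 0.07. Tnnc2 differed by -0.53 ± 0.07 (adjusted p = 0.000639, limma), under the fold threshold. All 12 means were lower in C26 muscle, with a median difference of -0.11. Their summed linear intensity ranged from 56700 to 58000 in control and from 48600 to 51000 in C26 pools. Among markers of the other cells in muscle, 4 of 10 measured for fibroblasts and tendon fell (log2 differences of -2.73 for Tnmd, -2.61 for Col1a1 and -1.40 for Fmod), 3 of 7 for adipocytes fell (-1.51 for Plin1), 1 of 10 endothelial markers fell (-1.21 for Kdr) and 1 rose (0.69 for Vwf), and none of 5 for Schwann cells was called. Of the adipocyte markers, Fabp4 differed by only -0.06 ± 0.08 and Lipe by 0.00 ± 0.10, with a list median of -0.21. Lep, among the 3 called lower, had a C26 mean of 3.74, under background. The fibroblast and tendon list did not run 1 way: Pdgfra differed by 0.50 ± 0.07 (adjusted p = 0.00135, limma) and Thbs4 by 0.43 ± 0.08 (adjusted p = 0.00415), both under the fold threshold, and Dcn by 0.03 ± 0.08. The summed linear intensity of that list, in which bright probe sets such as Col1a1 and Fmod weigh most, ranged from 7150 to 7980 in control and from 4460 to 4940 in C26 pools, and that of the endothelial markers overlapped between groups. The part of these cells in the differences of Tfrc, Steap3 and Slc11a2 was not tested.

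**Figure D4:**
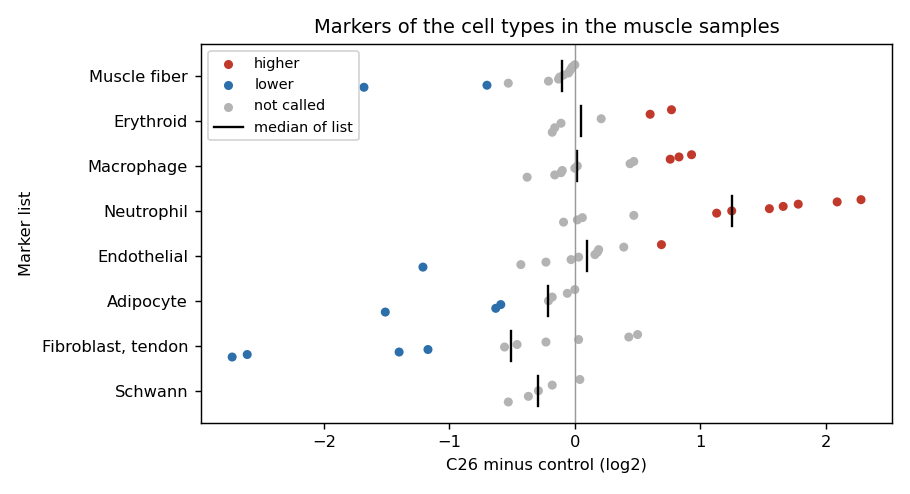
Difference between C26 and control muscle (log2, horizontal axis) for marker genes of muscle fibers and of the other cells that muscle can hold, by cell type, with a point for each gene, colored where it was called, and a black line for the median of each list. Neutrophil markers lay mostly to the right of 0 and tendon and adipocyte markers mostly to the left.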

How the data were processed

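Muscle RNA pools, 3 control and 3 C26, were hybridized to whole-transcript arrays. RNA integrity was 8.0 or better. Deposited log2 values are the authors' RMA output, made with a custom CDF (Brainarray, version 13) that gives 1 probe set per gene. RMA subtracts background, normalizes by quantiles and summarizes probes, so levels compare between arrays but not between genes. Its genome build was not given in the sources used here.

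Probe sets were named from the platform annotation: 18782 uniquely, 6 with several symbols, 4 sharing a symbol and 2420 unnamed here. All 21212 probe sets were fitted with limma 3.58.1 in R 4.3.3 (lmFit, eBayes; two-sided; Benjamini-Hochberg) with calls at adjusted p of 0.05 or less and 1.5-fold or more. Array background was the 95th percentile, 3.82, of the mean levels of 1255 olfactory and vomeronasal receptor probe sets. The fit was tested on simulated data. An exact permutation test of 3 pools against 3 cannot go below 0.1 and was not used.

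The members and all gene lists were chosen with earlier results of these data known. Named in the text were the members, the largest called genes of each list (up to 6 for pathway lists and 3 for markers), the 5 genes nearest to Tfrc, and genes used as a reference for their role, the last chosen after their values were seen. Alternatives covered the test, the thresholds, the scaling, a filter on dim probe sets, each array left out and a replicate block. Differences under the block rest only on the replicate numbers found in both groups.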

Additional observations from a re-analysis of the deposited data

How the results depend on the processing

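No called member or called pathway gene changed sign under the alternatives run. Of the 10 members, 4 were called. The count was 1 with a 2-fold minimum, which left Tfrc, and 7 with no minimum fold. It ranged from 4 to 5 with each array left out, Slc40a1 being added without C26 replicate 3. The number of members whose groups did not overlap was 8, against 43.9% of all probe sets, and 8 to 9 with each array left out. Leaving out an array makes non-overlap easier to reach, and its share over all probe sets was not worked out then. Among the other iron genes, 14 were higher, 21 with no minimum fold, and 7 with a 2-fold minimum or with a t-test of unequal variances (12 to 14 with each array left out). The 8 lower genes became 1 with a 2-fold minimum, 24 with no minimum fold, 13 after quantile normalization and 3 with a t-test of unequal variances (7 to 11 with each array left out). Of all probe sets, 30.1% passed in either direction with no minimum fold. Shares over all probe sets were not worked out for the other alternatives, so the counts under them have no such baseline. The methods name a t-test but do not say whether variances were taken as equal. A per-gene t-test with equal variances lost Hamp2 and Abcb10, with adjusted p of 0.171 and 0.0643. The t-test of unequal variances lost Alas2, Cp, Erfe, Hamp2, Hmox1, Slc25a28 and Slc25a38 on the higher side and Abcb10, Alas1, Glrx5, Hjv and Slc46a1 on the lower. The cause of the change under quantile normalization and under the t-test was not tested.

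Differences of members moved by more than the spread of the pools under 3 scalings and, for Aco1, under the replicate block. With arrays centred on their medians, Aco1 was -0.36, Fth1 0.16, Slc11a2 -0.54 and Steap4 0.71. With cyclic loess, Fth1 was 0.14, Slc11a2 -0.64 and Steap4 0.61, and with quantile normalization they were 0.16, -0.65 and 0.56. Steap4 was then not called, and Slc11a2 was not called with median centring, which added Slc40a1. With each array left out, no member moved by more than that spread, Tfrc ranged from -3.88 to -3.67 and Slc40a1 from 0.44 to 0.62, and Ncoa4, which was not called, ranged from -0.11 to 0.13.

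Replicate numbers 1 and 3 occur in both groups, and samples with the same number share only that number. Their deviations from the group means correlated at -0.0608 and -0.0572 across probe sets, and those of crossed numbers at 0.0715 and 0.0711. In the replicate block the difference rests on replicates 1 and 3 alone, since a number found in only 1 group adds nothing to it. Its changes may therefore come from the arrays set aside. With this block, 4 members were called and Aco1 moved to -0.49. Of the other iron genes, 14 were then higher and 8 lower, but not all the same genes: 12 of the higher and 7 of the lower were kept, Erfe (0.49), Slc25a38 (0.56) and Abcb10 (-0.51) were lost, and Lrp1, Steap2 and Alad were added. With 3 pools a group, the signal of genes near the background of 3.82, such as Cybrd1, Tfr2 and Hamp, gives only weak limits on their change.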
